A study of Homo sapiens with 6 samples.

Results

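The transcripts of the mitochondrial genome were taken as every row of the count table placed on chromosome MT. The rule found 37 of 57905 genes, namely 13 protein-coding genes, 2 rRNA genes and 22 tRNA genes. Poly(A) RNA came from RT4, an established line of bladder cancer cells grown from a papillary, non-invasive tumour. Cells labelled wild type received 100 pmol of either a universal negative control siRNA (Scramble) or an siRNA against LEADR, a long noncoding RNA of the MIR205HG locus (LEADR-KD). RNA was taken after 48 h, in 3 libraries per group that carry the numbers 1, 2 and 3. Nothing in the labels ties a number to a day or a culture, 1 siRNA sequence and 1 line were used, and p-values measure the spread between these libraries only.

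Human mitochondria carry many copies of a small circular genome that is read from both strands as long precursor RNAs. Most tRNA genes lie between the other genes, and cutting the tRNAs out releases the mRNAs and rRNAs. The mRNAs encode core subunits of respiratory complexes I, III and IV and of the ATP synthase (complex V), which work together with many subunits made from nuclear genes. Most mitochondrial mRNAs then receive a short poly(A) tail, by which they can enter a poly(A) library, and for some of them the tail also completes the stop codon. The mRNA of MT-ND6 is known as an exception that lacks a stable tail.

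The ends of the mRNAs are shown because the tail starts there and the libraries were selected by that tail. In 6 of the 13 protein-coding genes the annotated length is not a multiple of 3, so that the last codon holds only T or TA. Each line gives 30 bases of the GRCh37 reference, 5′ to 3′ on the plus strand, with those last bases in capitals and the start of the following gene after them.

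MT-ND1, MT:4248-4277: tccccctcaaaccTAagaaatatgtctgat
MT-ND2, MT:5497-5526: tactaataatcttaTagaaatttaggttaa
MT-CO3, MT:9976-10005: attgatgagggtctTactcttttagtataa
MT-ND3, MT:10390-10419: tagactgaaccgaaTtggtatatagtttaa
MT-ND4, MT:12123-12152: ccgggttttcctctTgtaaatatagtttaa
MT-CYB, MT:15873-15902: tactcaaatgggccTgtccttgtagtataa

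In all 6 the next gene on the plus strand is a tRNA gene that begins at the next base (MT-TI, MT-TW, MT-TG, MT-TR, MT-TH and MT-TT). Overlapping genes are shown because a read in the overlap can belong to either. MT-ATP8 and MT-ATP6 share 46 bases, 22.2% of MT-ATP8, and MT-ND4L and MT-ND4 share 7 bases, with the shared bases in capitals.

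MT-ATP8 and MT-ATP6, MT:8522-8577: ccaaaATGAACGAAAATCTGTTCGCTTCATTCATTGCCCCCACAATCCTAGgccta
MT-ND4L and MT-ND4, MT:10755-10771: ctccaATGCTAAaacta

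The libraries held 15706033 to 18960822 counts and 19299 to 20630 genes with a count. The siRNA target was lower, with MIR205HG counts of 511, 337 and 346 in Scramble, against 113, 211 and 101 in LEADR-KD (log2 fold change −1.47, edgeR adjusted p = 0.00180). Markers of urothelium were present (15 of 15 with counts, 8041.64 to 9586.42 nuclear CPM, that is CPM over the nuclear counts alone). Fibroblast markers summed to 1.03 to 2.76 nuclear CPM with PDGFRB, COL1A2 and DCN at 0. Endothelial markers summed to 7.68 to 11.0 in Scramble, against 2.72 to 4.82 in LEADR-KD, over 3 genes with KDR at 0, and their part in any result was not tested. Fewer mitochondria and less RNA per mitochondrion cannot be told apart in such libraries.

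Mitochondrial (MT) genes took 3.06% to 11.9% of the counts of a library, and the spread lay within the groups rather than between them. Scramble libraries 1, 2 and 3 held 2131041, 866989 and 481157 MT counts, and LEADR-KD libraries 1, 2 and 3 held 1868792, 1022243 and 832687. The library numbered 1 was the highest of its group and the one numbered 3 the lowest, in both groups. The highest share was 3.90 times the lowest in Scramble, against 2.25 times in LEADR-KD. The group means were 6.53% ± 4.75 (SD, n = 3) and 7.09% ± 3.21 (SD, n = 3), a difference of 0.567 points that was smaller than the spread (two-sided exact permutation test, p = 0.8, with 0.1 the smallest p that 3 against 3 allows). The difference between LEADR-KD and Scramble was −1.18 points at number 1, 1.16 points at number 2 and 1.73 points at number 3. Without Scramble library 1 it was 3.28 points, and without LEADR-KD library 1 it was −1.27 points, so that either library decides its size and the second also its sign. It also turned negative without Scramble library 2 (−0.410 points) or Scramble library 3 (−1.16 points). Counting error was small beside this, since the 95% Wilson intervals of the shares reached at most 0.0150 points to each side, which covers counting error only.

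**Figure D1:**
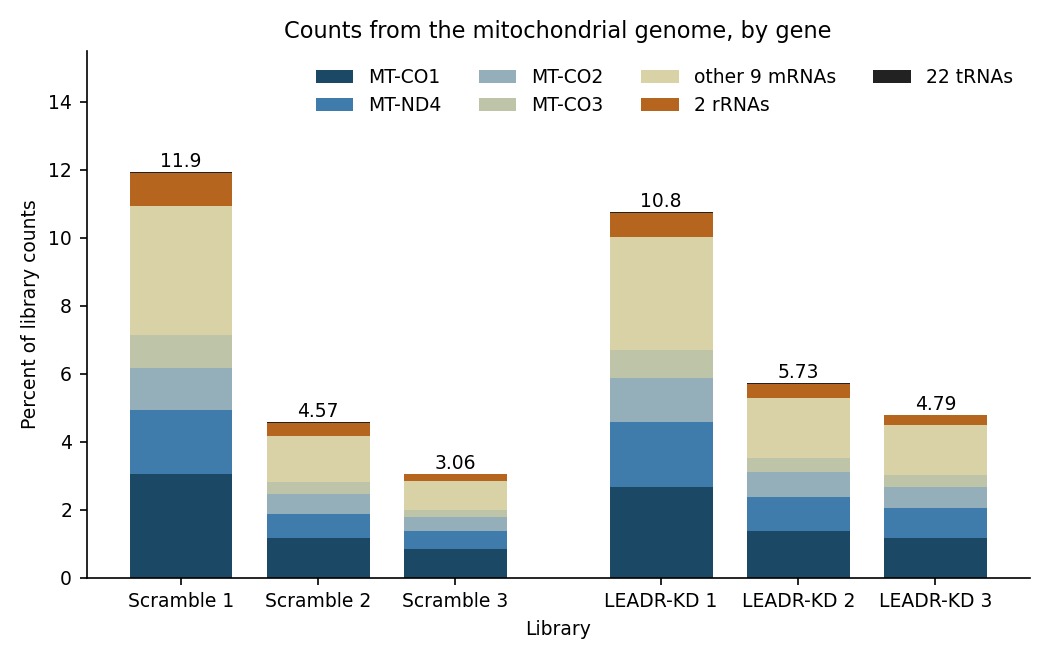
Stacked bars give the percent of all library counts (vertical axis) that came from the MT genes in each of the 6 libraries, split into MT-CO1, MT-ND4, MT-CO2, MT-CO3, the other 9 mRNAs, the 2 rRNAs and the 22 tRNAs. The bars of the libraries numbered 1 reach 11.9% and 10.8%, and the remaining bars lie between 3.06% and 5.73%.

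The mRNAs carried the MT counts in every library, at 91.3% to 93.6% of them. The 2 rRNAs made up 6.13% to 8.36% and the 22 tRNAs 0.263% to 0.348%. The rise in library 1 over the mean of libraries 2 and 3 came to 8.13 points of the library counts in Scramble and to 5.50 points in LEADR-KD. The 13 mRNAs made up 91.4% and 93.2% of that gap, the rRNAs 8.33% and 6.54%, and the tRNAs 0.311% and 0.220%. MT-CO1, MT-ND4, MT-CO2 and MT-CO3 together made up 58.2% of it in Scramble, against 62.0% in LEADR-KD. By complex, the subunits of complex IV made up 42.7% and 44.3% of the gap, those of complex I 35.9% and 36.5%, MT-CYB of complex III 6.72% and 6.31%, and those of complex V 6.00% and 6.10%.

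Complex IV, cytochrome c oxidase, passes electrons to oxygen, and its 3 mitochondrial subunits form its catalytic core. MT-CO1 took 3.04%, 1.16% and 0.844% of the library counts in Scramble (libraries 1, 2 and 3, the order used throughout), against 2.68%, 1.37% and 1.18% in LEADR-KD. It was the largest MT gene by counts in each library. MT-CO2 took 1.24%, 0.591% and 0.392% in Scramble, against 1.28%, 0.751% and 0.636% in LEADR-KD. MT-CO3 took 0.962%, 0.338% and 0.216% in Scramble, against 0.823%, 0.414% and 0.343% in LEADR-KD. For these 3 genes the library numbered 1 stood apart in both groups, and the ranges of the groups overlapped. Library 1 was above the mean of libraries 2 and 3 by 3.03-fold in Scramble, against 2.10-fold in LEADR-KD for MT-CO1, by 3.47-fold and 2.17-fold for MT-CO3, and by 2.52-fold and 1.84-fold for MT-CO2.

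Complex I, NADH dehydrogenase, is the entry point of the chain for electrons from NADH, and 7 of its subunits are mitochondrial. MT-ND4, which belongs to the proton-pumping membrane arm, took 1.89%, 0.720% and 0.541% of the library counts in Scramble, against 1.90%, 0.999% and 0.862% in LEADR-KD. MT-ND5, of the same arm, took 0.880%, 0.262% and 0.163% in Scramble, against 0.688%, 0.362% and 0.277% in LEADR-KD. Library 1 was 4.14-fold above libraries 2 and 3 for MT-ND5 in Scramble, against 2.15-fold in LEADR-KD, against 3.0-fold and 2.05-fold for MT-ND4. MT-ND2 took 0.421%, 0.207% and 0.147% in Scramble, against 0.443%, 0.245% and 0.237% in LEADR-KD. MT-ND1 took 0.493%, 0.184% and 0.117% in Scramble, against 0.429%, 0.253% and 0.196% in LEADR-KD. Both had a smaller ratio in LEADR-KD (1.84-fold for MT-ND2 and 1.91-fold for MT-ND1) than in Scramble (2.37-fold and 3.27-fold).

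MT-ND4L lies upstream of MT-ND4 on the same mRNA and took 0.198%, 0.0698% and 0.0458% in Scramble, against 0.184%, 0.0969% and 0.0757% in LEADR-KD. Its counts were 9.54% ± 1.00 (SD, n = 3) of those of MT-ND4 in Scramble, against 9.37% ± 0.513 (SD, n = 3) in LEADR-KD. MT-ND6 is the only one of the 13 mRNAs encoded on the minus strand, and took 0.316%, 0.0946% and 0.0569% in Scramble, against 0.256%, 0.128% and 0.107% in LEADR-KD. Its ratio to MT-ND5, its neighbour on the other strand, was 35.6% ± 0.716 (SD, n = 3) in Scramble, against 37.0% ± 1.65 (SD, n = 3) in LEADR-KD. MT-ND6 and MT-ND5 thus varied with each other across libraries although they are read from different strands, and whether the counting used strand is not stated. MT-ND3 took 0.0692%, 0.0539% and 0.0305% in Scramble, against 0.0642%, 0.0426% and 0.0401% in LEADR-KD. At 1.64-fold and 1.55-fold, MT-ND3 had the smallest ratio of library 1 to libraries 2 and 3 among the 15 mRNA and rRNA genes in both groups.

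MT-CYB, the cytochrome b of complex III, took 0.753%, 0.252% and 0.161% of the library counts in Scramble, against 0.648%, 0.326% and 0.275% in LEADR-KD. MT-ATP6, which forms part of the proton channel of complex V, took 0.669%, 0.235% and 0.142% in Scramble, against 0.613%, 0.309% and 0.254% in LEADR-KD. MT-ATP8, a small subunit of the same complex, had only 1626, 437 and 115 counts in Scramble, against 1200, 413 and 340 in LEADR-KD. It showed the widest ratio of library 1 to libraries 2 and 3 among the 15 genes, at 6.00-fold in Scramble, against 3.23-fold in LEADR-KD. Both genes lie on 1 mRNA and share the 46 bases printed above, yet MT-ATP8 had 0.952% ± 0.424 (SD, n = 3) of the counts of MT-ATP6 in Scramble, against 0.882% ± 0.213 (SD, n = 3) in LEADR-KD. How the counting assigned reads in the overlap is not stated.

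The 2 rRNAs of the mitochondrial ribosome carry short tails and differed in abundance. MT-RNR2, the large-subunit rRNA, took 0.893%, 0.351% and 0.177% in Scramble, against 0.649%, 0.373% and 0.267% in LEADR-KD. MT-RNR1, the small-subunit rRNA, took 0.0735%, 0.0311% and 0.0196% in Scramble, against 0.0626%, 0.0379% and 0.0265% in LEADR-KD. MT-RNR1 had 9.40% ± 1.5 (SD, n = 3) of the counts of MT-RNR2 in Scramble, against 9.91% ± 0.269 (SD, n = 3) in LEADR-KD. Across these 15 mRNA and rRNA genes, 15 had library 1 highest, library 2 in the middle and library 3 lowest in both groups. This order was known for the MT sum when the genes were chosen, so it is given as a description. LEADR-KD was below Scramble in 12 of the 15 at number 1, but above it in 14 at number 2 and in 15 at number 3. The signs are those of the differences in the MT share at each number, and the genes are not independent of each other.

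The FPKM values, which divide a count by gene length, allow levels to be set beside each other within a library. The mean FPKM in Scramble was 10963 for MT-CO1, 10828 for MT-CO2, 7645 for MT-ND4, 6498 for MT-CO3 and 5163 for MT-ATP6. Those in LEADR-KD were 11708, 13402, 9420, 6958 and 5964 for the same genes. MT-CO1 was above MT-CO2 in FPKM in Scramble library 1 (20532.9 against 18837.8) but below it in the other 5 libraries, so their order does not hold across libraries. Lower FPKM values were found for MT-ND3 (1467 ± 633 in Scramble, against 1453 ± 494 in LEADR-KD, SD, n = 3), MT-RNR1 (436 ± 323 and 458 ± 229) and MT-ATP8 (199 ± 227 and 188 ± 152).

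The tRNAs are shorter than a typical fragment, at 59 to 75 bases, and 13 of the 22 had a mean under 20 counts. Whether these counts came from mature tRNAs or from longer precursors was not tested, so they are not read as tRNA levels. MT-TS2 had no count in any of the 6 libraries, which cannot tell a low level from absence. The 8 tRNA genes on the minus strand held 85.2% of the tRNA counts (18848 of 22122), although without the strand setting their reads cannot be told from antisense reads of the plus-strand precursor. MT-TC, the tRNA for cysteine, had 2850, 1130 and 703 counts in Scramble, against 1881, 1319 and 1116 in LEADR-KD. MT-TN, for asparagine, had 1310, 550 and 294 in Scramble, against 852, 546 and 396 in LEADR-KD. These 2 genes and MT-TP, MT-TY and MT-TL1 were the 5 tRNA genes with a mean over 100 counts, and library 1 was the highest of its group for each of them. MT-TV, the tRNA for valine, went another way, with 1, 17 and 1 counts in Scramble, against 23, 27 and 9 in LEADR-KD. MT-TT, for threonine, had 5, 28 and 2 counts in Scramble, against 8, 14 and 6 in LEADR-KD, so that for both the library numbered 2 was the highest of its group.

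Library 1 was at least 2-fold above the mean of libraries 2 and 3 in both groups for 13 of the 25 MT genes tested, 10 of them among the 15 mRNA and rRNA genes. The same held for 33 of all 14178 genes tested (0.233%), of which 20 were nuclear. The median log2 ratio over the MT genes tested was 1.65 in Scramble, against 1.01 in LEADR-KD, against −0.15 and −0.15 over all genes tested. Shares of 1 total are tied, so a higher MT share in library 1 lowers the shares of the other genes there. Over nuclear counts alone, the median of 9536 nuclear genes with a mean of at least 10 nuclear CPM was −0.038 in Scramble and −0.051 in LEADR-KD. These ratios are given as a description, since the pattern was known when the genes were chosen.

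**Figure D2:**
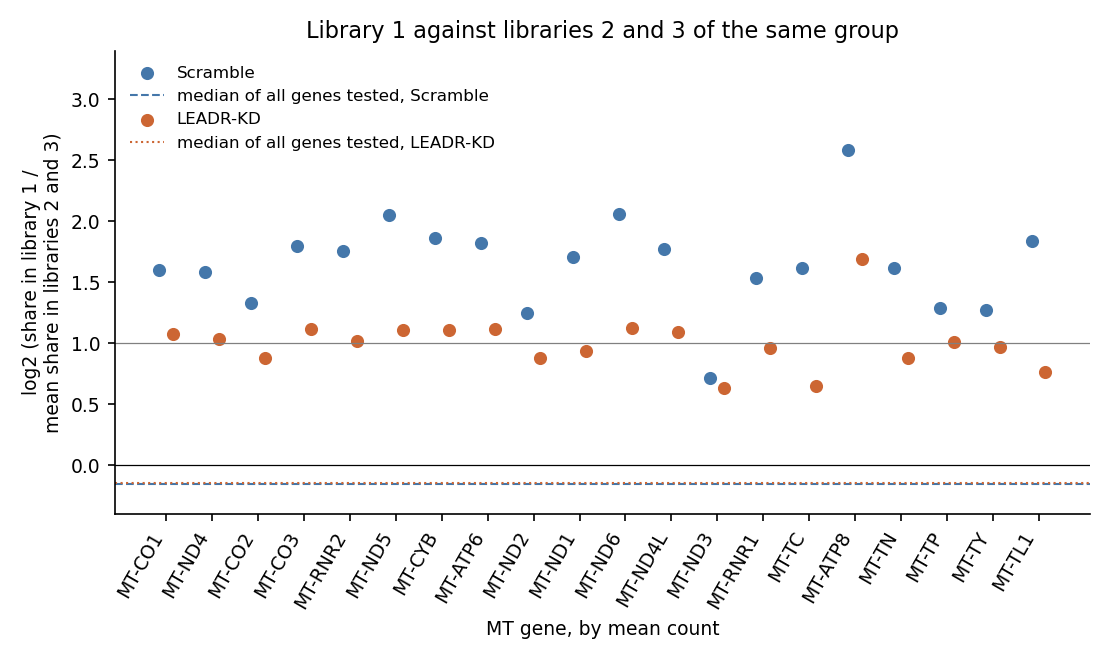
Points give, for the 15 MT mRNA and rRNA genes and the 5 tRNA genes with a mean over 100 counts, the log2 ratio of the share of library counts in library 1 to the mean share in libraries 2 and 3 of the same group. The dashed and dotted lines mark the medians over all 14178 genes tested (−0.15 in both groups), and the thin grey line marks a 2-fold ratio. The Scramble point lies above the LEADR-KD point for each gene, MT-ATP8 is highest and MT-ND3 is lowest in both groups.

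No MT gene passed the test between the groups in the fit of all 6 libraries with low counts filtered out and no other term. Of the 25 MT genes tested by edgeR's quasi-likelihood test, 0 were called at an adjusted p under 0.05 and 0 had an unadjusted p under 0.05, against 3455 of the 14178 genes tested (24.4%), 1736 higher and 1719 lower. DESeq2 and limma on log2(FPKM + 1) also called 0 MT genes, each with 1 at an unadjusted p under 0.05. With no filter on low counts edgeR called 2 of 36 MT genes higher, MT-ND2 (log2 fold change 0.31) and MT-TV (1.72), beside 14.2% of the genes then tested. The adjusted p-values of the 25 MT genes ranged from 0.141 to 0.996. Their median log2 fold change was 0.09, against −0.01 over all genes tested, and 17 of the 25 lay above 0. That median ran from −0.39 without LEADR-KD library 1 to 0.94 without Scramble library 1. The largest log2 fold changes among the mRNAs were 0.30 ± 0.40 (SE) for MT-CO2, 0.29 ± 0.38 for MT-ND2 and 0.29 ± 0.45 for MT-ND4, each smaller than its SE. MT-RNR2 was at −0.11 ± 0.51 (SE), MT-ATP8 at −0.10 ± 0.71 and MT-ND3 at −0.03 ± 0.29, and MT-CO1 was at 0.08 ± 0.47. The low-count MT-TV had the smallest adjusted p of the 25 (log2 fold change 1.70 ± 0.78, SE, edgeR adjusted p = 0.141).

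**Figure D3:**
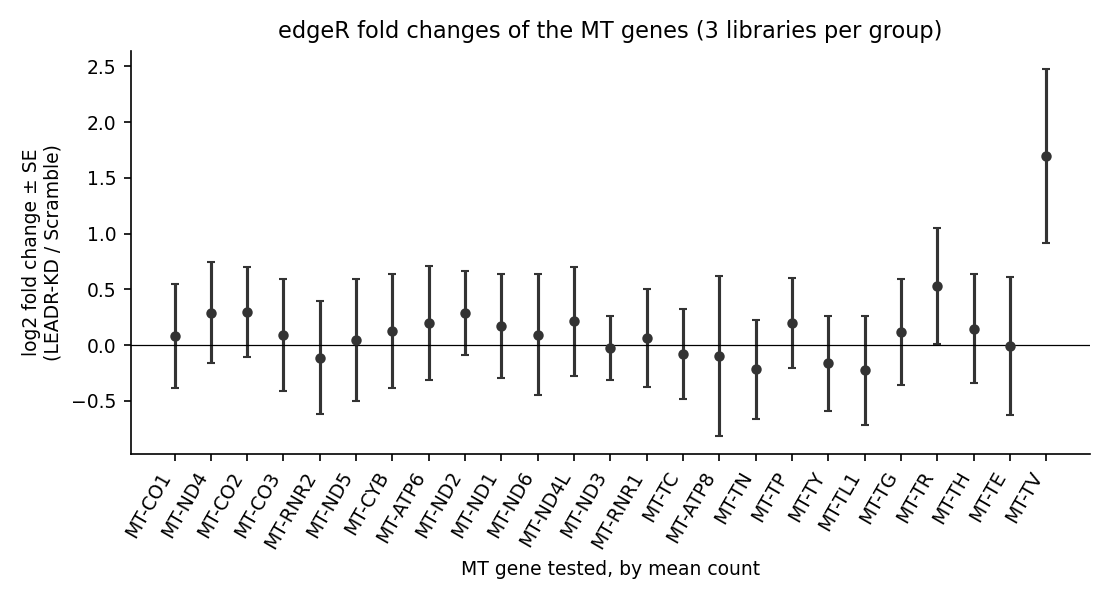
Points give the log2 fold change of LEADR-KD over Scramble for the 25 MT genes tested by edgeR, ordered by mean count, and bars give ± 1 SE (3 libraries per group). Apart from MT-TV at 1.70 and MT-TR at 0.53, the points lie between −0.23 and 0.30.

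The spread behind these fold changes was wide. The pooled SD of log2 CPM (counts scaled to a common library size) within the groups was over 0.5 for 25 of the 25 MT genes tested and for 9.38% of all genes tested. Its median was 0.918 over the MT genes and 0.169 over all genes, and over the 15 mRNA and rRNA genes it ran from 0.580 for MT-ND3 to 1.54 for MT-ATP8. The differences between libraries were known for the MT sum when the genes were chosen, so this spread is given as a description. The MT genes also move together and are not independent of each other. The count of MT genes called turned on single libraries. Without Scramble library 1, edgeR called 6 of 26 MT genes higher, beside 19.9% of all genes tested in that fit, and these were MT-ND4 (1.11), MT-ND1 (1.07), MT-ND6 (1.22), MT-ND4L (1.15), MT-TC (0.76) and MT-TR (1.53, log2 fold changes). Without Scramble library 2 it called MT-TV alone (log2 fold change 4.11), beside 17.2% of all genes tested. Without both libraries numbered 1 it called 8 of 26 higher, beside 20.8% of all genes tested, of which 6 are complex I genes (MT-ND1, MT-ND2, MT-ND4, MT-ND4L, MT-ND5 and MT-ND6) at 0.48 to 0.66, with MT-CYB at 0.57 and MT-TC at 0.44. No MT gene was called lower in any of these fits.

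The makeup of the MT counts was much steadier than their sum. Complex I genes took 35.7%, 34.8% and 36.0% of the MT counts in Scramble, against 36.9%, 37.1% and 37.4% in LEADR-KD. The groups thus did not overlap (difference 1.66 points, two-sided exact permutation test, unadjusted p = 0.1, the smallest possible). The same two-sided exact permutation test gave unadjusted p = 0.8, 0.4 and 0.4 for complexes III, IV and V. MT-ND4 made up 1.31 points of the complex I difference. Its own groups overlapped, with Scramble library 3 at 17.6% and LEADR-KD library 2 at 17.4%. The differences of the remaining complex I genes lay between −0.192 points (MT-ND3) and 0.175 points (MT-ND1). Complex IV genes took 45.7% ± 1.74 (SD, n = 3) in Scramble, against 44.6% ± 0.408 (SD, n = 3) in LEADR-KD, with overlap. Gene by gene, the groups did not overlap for 2 of the 26 MT genes with a mean of at least 10 counts (7.69%). With 3 against 3, a gene that does not differ has a probability of 0.1 of such a separation, so this share is not above it. MT-CO1 took 25.5%, 25.5% and 27.5% of the MT counts in Scramble, against 24.9%, 23.9% and 24.6% in LEADR-KD. MT-TN took 0.0620% ± 0.00126 (SD, n = 3) in Scramble, against 0.0489% ± 0.00407 (SD, n = 3) in LEADR-KD. Both had an adjusted p of 0.765 over the 26 genes (two-sided exact permutation test, unadjusted p = 0.1), and shares of 1 total are not independent of each other. When 1 library was left out, 3 to 11 of the genes did not overlap, with 11 without Scramble library 1, 7 without Scramble library 3 and 6 without LEADR-KD library 2. Fewer libraries make overlap rarer, so these counts cannot be set against the 2 found with all 6 libraries.

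Within this makeup the libraries numbered 1 differed from the others in the same sense in both groups for 12 of the 15 mRNA and rRNA genes. A smaller share of the MT counts was taken there by 5 genes, MT-ND4, MT-CO2, MT-ND2, MT-ND3 and MT-RNR1, and a larger one by 7, MT-CO3, MT-ND5, MT-CYB, MT-ATP6, MT-ND6, MT-ND4L and MT-ATP8. MT-ND3 took 0.580%, 1.18% and 0.996% of the MT counts in Scramble, against 0.597%, 0.744% and 0.836% in LEADR-KD. MT-ATP8 took 0.0763%, 0.0504% and 0.0239% in Scramble, against 0.0642%, 0.0404% and 0.0408% in LEADR-KD. MT-CO2 took 10.4%, 12.9% and 12.8% in Scramble, against 11.9%, 13.1% and 13.3% in LEADR-KD. For MT-ND4 in LEADR-KD the shift was slight, at 17.7%, 17.4% and 18.0%, and MT-CO1, MT-RNR2 and MT-ND1 moved in opposite senses in the 2 groups. These shifts are a description of 2 libraries and were not tested.

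**Figure D4:**
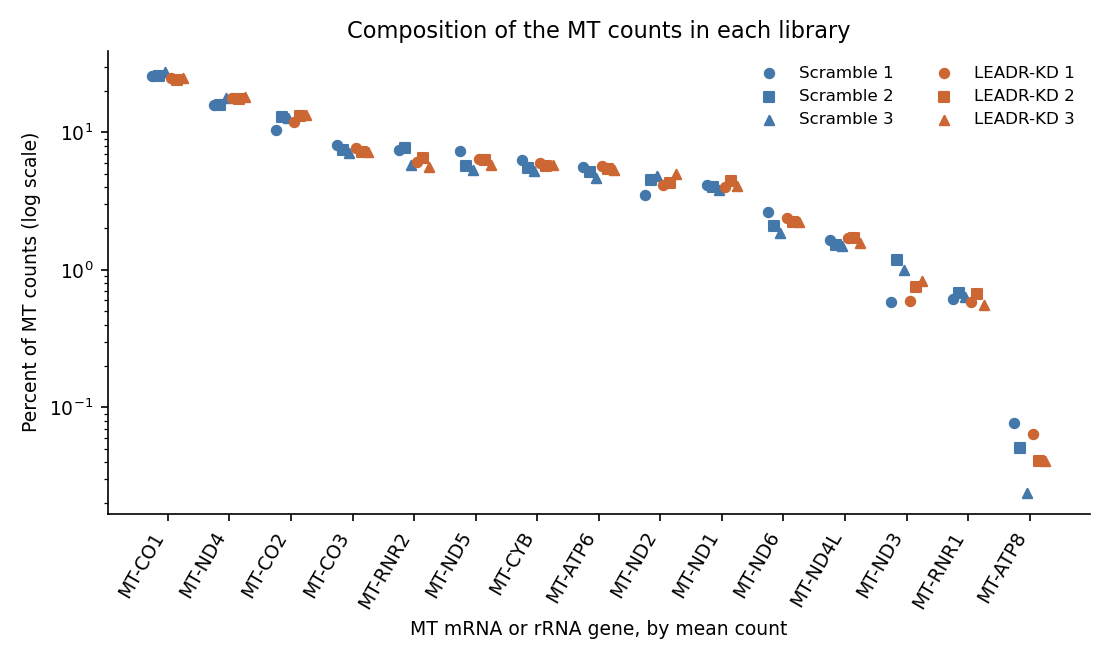
Points give the percent of the MT counts (log scale) taken by each of the 15 MT mRNA and rRNA genes in each of the 6 libraries. MT-CO1 is highest and MT-ATP8 lowest in every library, while genes with close shares, such as MT-ND1 and MT-ND2, exchange places. MT-CO1 lies at 23.9% to 27.5%, and the widest scatter is that of MT-ATP8, at 0.0239% to 0.0763%.

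Copies of mitochondrial DNA sit in nuclear chromosomes, and reads that match both places can be counted at either. Of 188 rows named as such copies, 173 had no count and 2 had a mean of at least 10. MTATP6P1 (GRCh37 chr1:569076-569756) was 98.5% identical to MT-ATP6, with 10 mismatches over 681 bases, and MTND2P28 (chr1:565020-566063) was 98.2% identical to MT-ND2. MTATP6P1 had 6863, 2309 and 1569 counts in Scramble, against 4706, 2898 and 2329 in LEADR-KD, which is 5.99% ± 0.955 (SD, n = 3) and 4.98% ± 0.485 (SD, n = 3) of the counts of MT-ATP6. MTND2P28 had 4.25% ± 0.332 (SD, n = 3) of the counts of MT-ND2 in Scramble, against 3.86% ± 0.328 (SD, n = 3) in LEADR-KD. Both had library 1 highest in each group, as the MT genes did. The values of MT-ATP6 and MT-ND2 are uncertain to the extent that reads were split with these copies.

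Among nuclear genes, 9536 had a mean of at least 10 nuclear CPM and were ranked by the log2 ratio of library 1 to libraries 2 and 3 that was nearer to 0 of the 2 groups, set to 0 where the groups had opposite signs. On this scale the MT sum had ratios of 1.77 in Scramble, against 1.12 in LEADR-KD, and the middle 90% of the genes had such a ratio between −0.292 and 0.198. The 5 genes most like the MT sum were MTND2P28 (1.40 in Scramble, against 1.07 in LEADR-KD), KIT (1.08 and 0.98), MTATP6P1 (1.92 and 0.96), NDRG1 (0.90 and 1.02) and the row named hsa-mir-6723 (1.61 and 0.87). That row, an annotated pseudogene at GRCh37 chr1:566454-567996, was 98.6% identical to MT-CO1, so 3 of the 5 were copies of mitochondrial genes. KIT, a receptor tyrosine kinase, had 21.3, 12.2 and 7.95 nuclear CPM in Scramble, against 26.5, 16.1 and 10.8 in LEADR-KD. NDRG1, a gene induced by low oxygen and other stress, had 142, 69.5 and 82.7 in Scramble, against 93.9, 39.1 and 53.7 in LEADR-KD. Both lay highest in the library numbered 1 of each group, which the ranking selects for, with overlap between the groups.

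The 5 genes most opposite to the MT sum were EGR1 (−1.67 and −2.36), IFI27 (−2.02 and −1.59), BST2 (−1.69 and −1.02), IFI6 (−1.07 and −0.85) and TXNL4B (−0.84 and −1.11). EGR1, an immediate early transcription factor, had 5.09, 28.4 and 4.07 nuclear CPM in Scramble, against 7.35, 63.5 and 12.2 in LEADR-KD, so it was highest in the libraries numbered 2. IFI27, BST2 and IFI6 are interferon-induced genes and were highest in the libraries numbered 3. IFI6 had 29.5, 10.8 and 113 in Scramble, against 48.5, 54.1 and 121 in LEADR-KD. The cytosolic ribosomal protein mRNAs summed to 52388, 50086 and 43727 nuclear CPM in Scramble, against 54668, 45435 and 47433 in LEADR-KD, with library 1 the highest of each group. Replication-dependent histone genes, a class whose mRNAs typically lack a poly(A) tail, summed to 55.7, 66.0 and 64.4 in Scramble, against 41.9, 43.3 and 49.0 in LEADR-KD. Of these 88 genes, 13 had a mean of at least 10 counts, and whether the counted RNAs had a tail is not known. The groups did not overlap in this sum, which was not tested. MALAT1, an RNA kept in the nucleus, had 231, 58.3 and 63.8 nuclear CPM in Scramble, against 71.5, 52.8 and 30.2 in LEADR-KD, and was also highest in the library numbered 1 of each group. NEAT1, the other nuclear RNA listed, had 168, 87.7 and 97.9 in Scramble, against 91.0, 149 and 119 in LEADR-KD, where library 1 was the lowest. The part of the RNA fraction, RNA quality or culture in the differences between libraries was not tested.

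**Figure D5:**
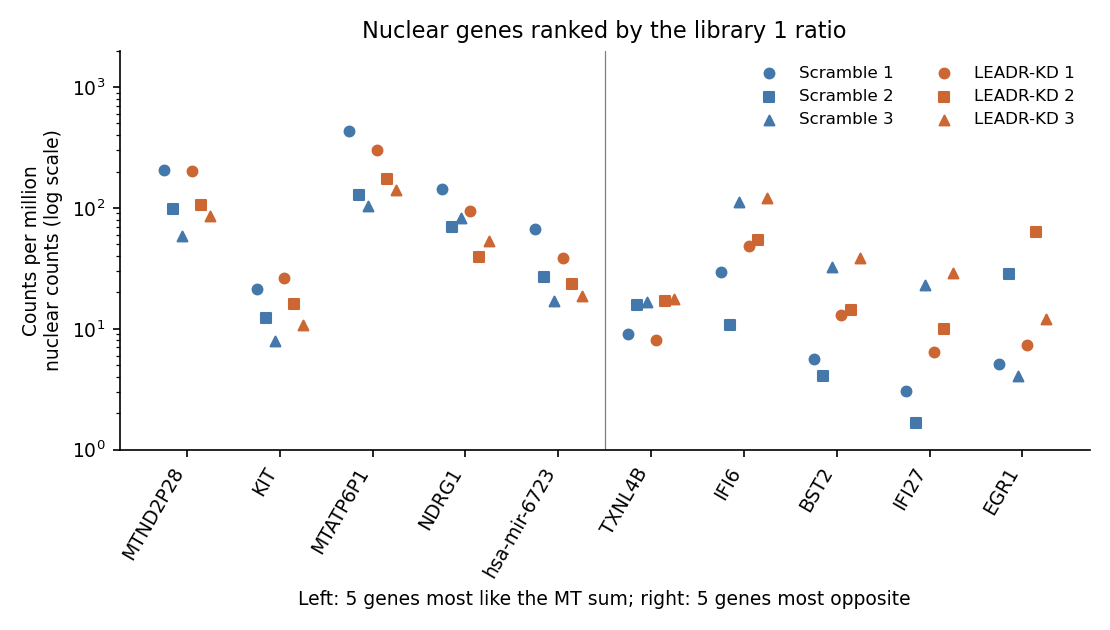
Points give nuclear CPM (log scale) in each of the 6 libraries for the 5 nuclear genes whose library 1 ratio was most like that of the MT sum (left of the line) and the 5 most opposite to it (right). The circles, which mark the libraries numbered 1, lie on top of their group on the left, and on the right they lie below the mean of the other libraries of their group. The ranking selects for both positions.

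Nuclear genes that maintain, transcribe, process and translate the mitochondrial genome, or make the partner subunits, were compared in the same fit. Of 217 such genes tested, 11 were higher and 16 lower in LEADR-KD, which is 12.4% beside 24.4% of all genes tested. Scaling by library totals alone left 2 higher and 11 lower, with 18.6% of all genes tested called. Leaving out 1 library gave 4 to 9 higher and 7 to 14 lower, with 16.1% to 20.1% of all genes tested called. Among 12 genes of mtDNA upkeep 0 were higher and 1 was lower, LIG3 (log2 fold change −0.29 ± 0.09, SE, edgeR adjusted p = 0.0410). LIG3 encodes a DNA ligase with nuclear and mitochondrial forms, which counts per gene do not separate. Among 9 genes of transcription 1 was higher, MTERFD1 (0.43, adjusted p = 0.0467), and 1 lower, MTERFD3 (−0.63, adjusted p = 0.0477), both of the family of mitochondrial transcription termination factors. LIG3, MTERFD1 and MTERFD3 each passed in only 1 of the 6 fits that left out 1 library. POLRMT, the mitochondrial RNA polymerase, was at 0.02 ± 0.08 (SE, edgeR adjusted p = 0.914), and TFAM, which packs mtDNA and starts its transcription, at 0.13 ± 0.09 (SE, adjusted p = 0.316). None of the 8 regulators of mitochondrial biogenesis passed the edgeR test in either direction.

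Among 38 genes of MT RNA processing, modification and decay 3 were higher and 3 lower. HSD17B10, a subunit of the enzyme that cuts the 5′ ends of mitochondrial tRNAs, fell by 0.91 on the log2 scale (SE 0.09, edgeR adjusted p = 3.2e-05), with 1226, 1577 and 1356 counts in Scramble, against 668, 748 and 742 in LEADR-KD. The groups did not overlap for this gene, and the call held in 6 of 6 fits that left out 1 library. LRPPRC, which stabilises mitochondrial mRNAs, was 0.31 ± 0.09 (SE) higher (edgeR adjusted p = 0.0251), but passed in only 2 of those 6 fits. PNPT1, an exonuclease of mitochondrial RNA decay, was at 0.26 ± 0.14 (SE, adjusted p = 0.228).

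Of 74 proteins of the mitochondrial ribosome 5 were higher and 5 lower. MRPL19 rose by 0.49 ± 0.10 (SE, edgeR adjusted p = 0.00351), and MRPL34 (−0.94 ± 0.16, adjusted p = 0.00126), MRPS14 (−0.80 ± 0.13, adjusted p = 0.00108) and MRPS27 (−0.52 ± 0.10, adjusted p = 0.00283) fell. Of 76 nuclear genes of oxidative phosphorylation 2 were higher and 6 lower. COX6B1 of complex IV fell by 0.64 ± 0.09 (SE, edgeR adjusted p = 0.000289) and NDUFA3 of complex I fell by 0.52 ± 0.11 (SE, adjusted p = 0.00507), while ATP5L of complex V rose by 0.42 ± 0.08 (SE, adjusted p = 0.00292). The median log2 fold change was −0.02 over the ribosomal proteins and −0.03 over the oxidative phosphorylation genes, against −0.01 over all genes tested. These 7 genes kept their calls in each of the 6 fits that left out 1 library. Of the 23 called genes examined in this way, 10 kept their calls in those 6 fits.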

How the data were processed

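Poly(A) RNA of RT4 cells was measured in 6 libraries, grouped by the submitters' labels. The authors deposited raw counts. Their processing notes list hg19, featureCounts 1.5.0-p3 and HISAT2 2.0.5, whereas Salmon is named in the study's methods. Strand setting and treatment of reads with several matches: not given in the sources used here. The deposited FPKM values equal the count divided by gene length and by 1 constant per library. A table of the authors' own comparison (fold changes and p-values, DESeq2) was not used.

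MT rows matched the start, end and strand of the GRCh37 annotation in 37 of 37 cases, and sequences were read from that reference. Counts were scaled by TMM, filtered by filterByExpr (minimum count 10) and tested by edgeR 4.0.16 (quasi-likelihood, R 4.3.3) over 14178 genes, with Benjamini-Hochberg adjustment and a threshold of 0.05. DESeq2 1.42.0 and limma 3.58.1 (pseudocount 1 for FPKM) were alternatives. Shares of counts were compared by two-sided exact permutation tests in scipy 1.17.1. The scripts were tested on simulated data. All MT genes were described, the nuclear copies where their mean reached 10 counts, and up to 4 called genes per nuclear list and direction. Members and lists were chosen with earlier results of these data known.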

Additional observations from a re-analysis of the deposited data

How the results depend on the processing

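The group difference in the MT share ranged from −1.27 to 3.28 points when each library was left out in turn, and turned negative in 3 of those 6 fits. It was 0.551 to 0.724 points with nuclear counts, TMM sizes, the mRNAs alone and without the rRNAs, and 1.44 points without both libraries numbered 1. The exact permutation tests of these differences are too small to reach 0.05 and say nothing of stability. The count of MT genes called higher by edgeR, 0, became 2 of 36 with no filter on low counts (14.2% of all genes called) and 8 of 26 without both libraries numbered 1 (20.8%), and ran from 0 to 6 when 1 library was left out. It stayed at 0 with RLE factors, library totals, nuclear library sizes, a mean of at least 50 counts, DESeq2 and limma, and the count called lower was 0 under each alternative. For the nuclear lists, 11 higher and 16 lower became 2 and 11 with library totals (18.6% of all genes called) and 3 and 13 without both libraries numbered 1 (20.8%). They were 4 to 9 and 7 to 14 when 1 library was left out (16.1% to 20.1%).

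In the fit with replicate number as a block (replicate block), 7 of 25 MT genes were called higher and 12 had an unadjusted p under 0.05, the nuclear lists had 20 higher and 23 lower, and 34.2% of all genes were called. In the same design 14 of 26 MT genes had a within-MT share that differed in the same sense at each number. These shares are parts of 1 total and move together, so the genes are not independent, and this count was not tested. Deviations of same-numbered libraries correlated over 12852 genes at 0.285 (number 1), −0.0359 (number 2) and 0.377 (number 3), so the libraries numbered 2 did not correlate best with each other and the numbers were not taken to pair the samples. The sign-flip test of the paired differences in the MT share gave p = 0.75 (exact, with 0.25 the smallest p), and their mean equals the unpaired difference by construction. The number of genes whose groups did not overlap in the within-MT share, 2, ran from 3 to 11 when 1 library was left out, as fewer samples make overlap rarer.

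The log2 ratio of library 1 to libraries 2 and 3 for the MT sum, 1.65 in Scramble and 1.03 in LEADR-KD, was 1.77 and 1.12 over nuclear counts, 1.78 and 1.18 over TMM sizes, 1.39 and 0.91 against library 2 alone, and 1.96 and 1.17 against library 3 alone. With the mRNAs alone it was 1.64 in Scramble.

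When 1 library was left out, log2 fold changes ran from −0.44 to 0.91 for MT-CO1, −0.22 to 1.11 for MT-ND4, −0.13 to 0.96 for MT-CO2, −0.47 to 1.04 for MT-CO3, −0.61 to 0.81 for MT-RNR2, −0.50 to 1.17 for MT-ND5, −0.42 to 1.12 for MT-CYB, −0.36 to 1.17 for MT-ATP6, −0.14 to 0.91 for MT-ND2, −0.28 to 1.07 for MT-ND1, −0.46 to 1.22 for MT-ND6, −0.32 to 1.15 for MT-ND4L, −0.33 to 0.31 for MT-ND3, −0.40 to 0.85 for MT-RNR1, −0.98 to 1.40 for MT-ATP8 and −0.028 to 0.063 for POLRMT. Signs also turned for MT-RNR2 (0.12 with the replicate block, 0.13 by limma, 0.31 without both libraries numbered 1), MT-ND3 (0.024, 0.037 and 0.00036) and MT-ATP8 (0.23, 0.39 and 0.50), and for POLRMT with library totals (−0.027). None of these reversed values passed the test. The causes were not tested.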
